A study of Mus musculus with 6 samples.

Results

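Transcripts of 10 genes that direct luminal and alveolar identity in the mammary epithelium were examined in whole tumours of MMTV-PyMT mice. The 10 genes were 3 hormone receptors (Esr1, Pgr and Prlr), 2 STAT5 factors (Stat5a and Stat5b) and 5 lineage transcription factors (Gata3, Foxa1, Elf5, Ehf and Grhl2). They were taken by name from the deposited expression table, where the array annotation had to give exactly 1 gene for a probe set. By this rule 9 of the 10 were measured, among 19937 named genes in all, and each of the 9 was read by 1 probe set. No probe set was named Prlr in the annotation used here, so the prolactin receptor was not analysed.

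The mice were female, of strain FVBN, and carried the MMTV-PyMT transgene, in which the mouse mammary tumour virus promoter expresses the polyoma middle T oncogene in mammary epithelium. That promoter itself responds to steroid hormones. Both dosing groups shared strain, sex and transgene, and tumour burden was recorded at an age of 75 to 90 days, before dosing began. The group labelled Tumor.DMSO (3 mice) received the DMSO vehicle and the group labelled Tumor.TMP195 (3 mice) received TMP195, an inhibitor of the class IIa histone deacetylases, at 50 mg/kg once a day into the peritoneum, in a volume of 2 µL per gram. The treatment protocol gives 5 days of dosing, whereas the design text gives 2 weeks. RNA from 1 tumour of each mouse was hybridised to 1 Affymetrix array, so that the 3 values of a group came from 3 animals. With so few arrays, the precision of each value below is limited.

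In the mammary gland, estrogen and progesterone act on luminal cells that hold the estrogen receptor (Esr1) and the progesterone receptor (Pgr), and these cells signal to their neighbours. GATA3 and FOXA1 open chromatin for the estrogen receptor and maintain the luminal fate. Prolactin acts through its receptor and JAK2 on STAT5A and STAT5B, which together with the ETS factor ELF5 drive the alveolar, milk-producing programme. EHF is a related epithelial ETS factor, and GRHL2 maintains epithelial junctions. Tumours of the MMTV-PyMT model are known to lose hormone receptors as they progress.

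The label of the tissue was checked against markers. Of the luminal epithelial markers, 7 of 7 were measured (Krt8, Krt18, Krt19, Epcam, Cdh1, Cldn3 and Cldn7), and all 7 lay above the 30th percentile of mean intensity. Their summed intensity ran from 9379 to 10226 in vehicle tumours and from 9502 to 10463 in TMP195 tumours. Other tissue was present in unequal amounts. The 9 skeletal muscle markers summed to 3491 in vehicle tumour 2 and to between 212 and 326 in the other 5 tumours. The 9 measured adipocyte markers ran from 257 in TMP195 tumour 2 to 6359 in vehicle tumour 3. The 9 basal and myoepithelial markers summed to 1252 to 1722 under vehicle and 1428 to 1476 under TMP195, the 7 fibroblast markers to 7265 to 11171 and 6596 to 10497, and the 8 macrophage markers to 2452 to 2917 and 2240 to 3354. TMP195 tumour 2 also stood apart across the array, with 2.57% of genes more than 2-fold away from the median of the other 5 tumours, against 0.266% to 0.772% in each of those. In bulk tissue, fewer cells of a type and less RNA per cell cannot be told apart.

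None of the 9 regulators differed between the dosing groups beyond the spread of the tumours. Values are log2 intensities, differences are TMP195 minus vehicle on that scale with their standard error (SE), and the test was limma's moderated test over all 19937 genes, two-sided, with Benjamini-Hochberg adjustment. At an adjusted p under 0.05, 0 of 9 members and 0 of 19937 genes (0%) were called, and the smallest adjusted p over all genes was 1.00. Before adjustment, 0 of 9 members had a limma p under 0.05, against 2.52% of all genes. The groups did not overlap in 0 of 9 members, against 6.68% of all genes. Of the 9 differences, 6 were below 0 and 3 above, with a median of -0.0072 beside a median of -0.0014 over all genes.

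**Figure D1:**
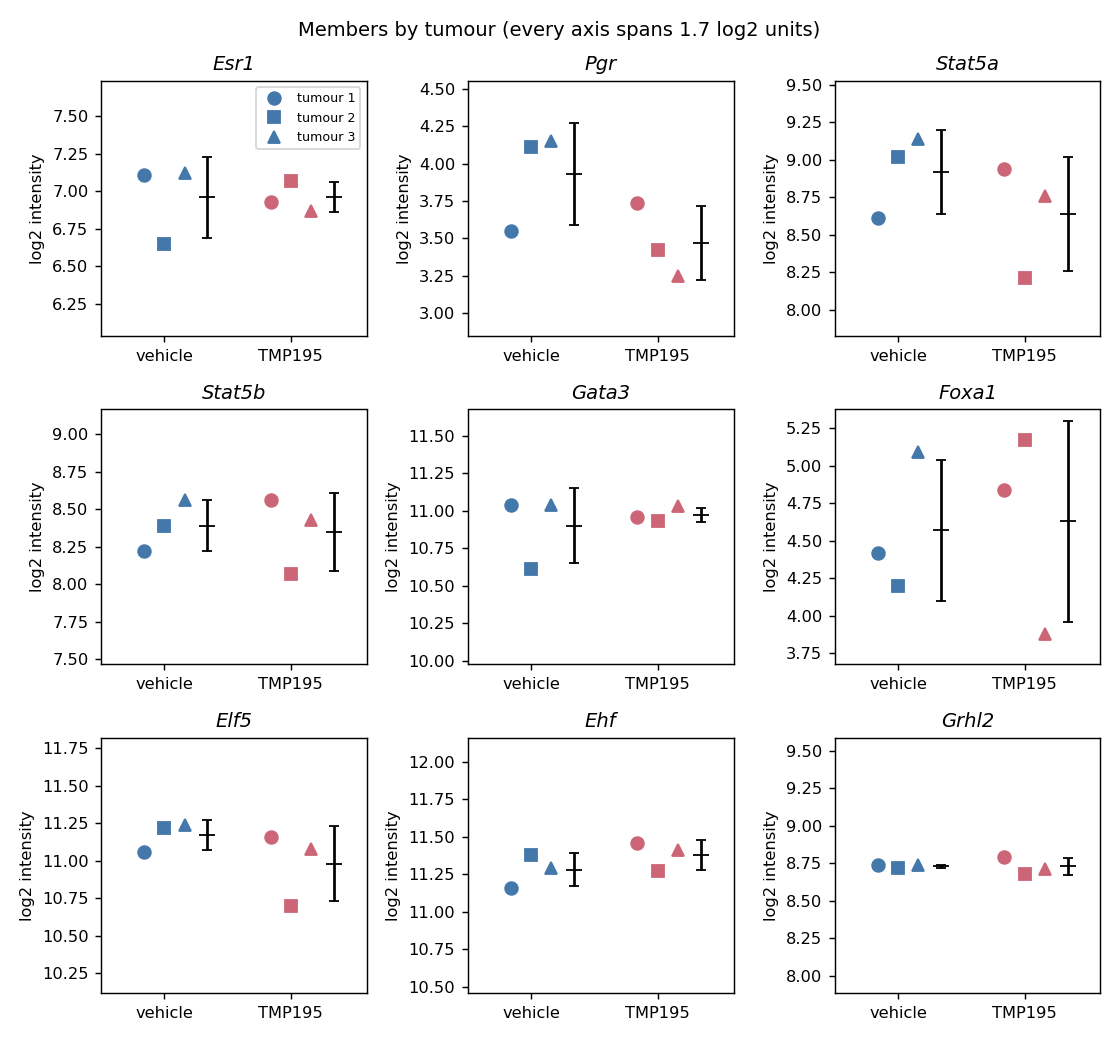
Log2 intensity (vertical axes, each spanning the same number of log2 units) of the 9 measured regulators in vehicle and TMP195 tumours; circles, squares and triangles are tumours 1, 2 and 3 of a group, and the black bar is the mean with its SD (n = 3). The groups overlap in every panel, Foxa1 spreads most (vehicle 4.20 to 5.09, TMP195 3.88 to 5.17), and Grhl2 is nearly flat.

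The hormone receptors were compared first. Esr1, the gene of estrogen receptor alpha, read 7.11, 6.65 and 7.12 under vehicle and 6.93, 7.07 and 6.87 under TMP195, here and below in the order of tumours 1, 2 and 3. The lowest value belonged to vehicle tumour 2, and all 3 TMP195 values lay inside the vehicle range. The means were 6.96 ± 0.27 (SD, n = 3) and 6.96 ± 0.10 (SD, n = 3), a difference of -0.0055 ± 0.15 (SE). Its 95% interval, -0.36 to 0.35, spans 0.78-fold to 1.27-fold.

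Pgr, the progesterone receptor gene and itself a classical target of the estrogen receptor, had the difference of largest size among the 9 members. It read 3.55, 4.11 and 4.15 under vehicle and 3.74, 3.42 and 3.25 under TMP195. Vehicle tumours 2 and 3 lay above all TMP195 tumours, but vehicle tumour 1 lay below TMP195 tumour 1, so the groups overlapped. The difference was -0.46 ± 0.20 (SE), or 1.37-fold lower under TMP195, with an interval of -0.93 to 0.01 (limma unadjusted p = 0.0556, adjusted p = 1.00). An exact permutation test, two-sided, gave p = 0.2, where 3 tumours against 3 cannot go below 0.10. The probe set was dim, at percentile 25.8 of mean intensity, with intensities of 9.54 to 17.7. With 16 added to every intensity before taking logs, the difference was -0.21. It was -0.65 without vehicle tumour 1 (limma adjusted p = 0.96) and -0.59 without TMP195 tumour 1 (limma adjusted p = 0.99), whereas it was -0.35 without vehicle tumour 3 or TMP195 tumour 3. The first 2 of these settings brought its unadjusted p in limma under 0.05, to 0.0077 and 0.0291.

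**Figure D2:**
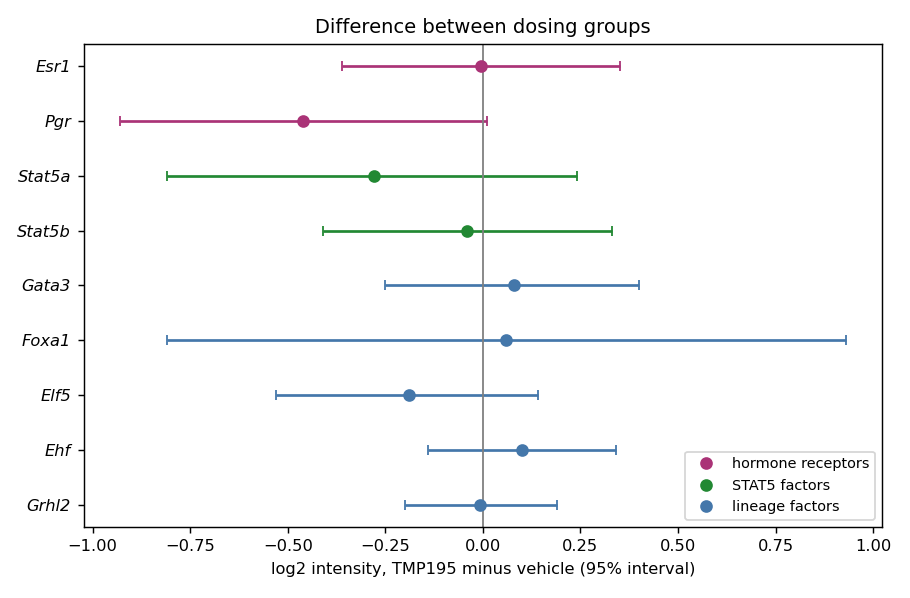
Difference in log2 intensity, TMP195 minus vehicle (horizontal axis), with its 95% interval from limma for each of the 9 regulators (3 tumours a group); colours give the role. Every interval includes 0, the Pgr interval only just (-0.93 to 0.01), and the intervals are widest for Foxa1 (-0.81 to 0.93) and narrowest for Grhl2 (-0.20 to 0.19).

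Genes that respond to estrogen and progesterone, or that mark hormone-sensing cells, were read from a list of 12, of which 10 were measured. Of these, 3 were higher and 7 lower under TMP195, with a median difference of -0.074, and 0 of 10 passed an adjusted p of 0.05. Limma gave 1 of 10 at an unadjusted p under 0.05, against 2.52% of all genes. This was Cited1, a transcriptional coactivator found in estrogen-responsive luminal cells. Cited1 read 4.71, 4.78 and 5.00 under vehicle and 5.18, 5.32 and 5.09 under TMP195, a difference of 0.36 ± 0.11 (SE, unadjusted p = 0.0160, adjusted p = 1.00 in limma). Its groups did not overlap, 1 of 10 in the list against 6.68% of all genes. Greb1, a cofactor induced by the estrogen receptor, differed by -0.36 ± 0.23 (SE), but it was dim, at percentile 15.1. Wnt4, a paracrine signal downstream of the progesterone receptor, differed by 0.15 ± 0.13 (SE), and the transcription factor gene Myb by -0.16 ± 0.13 (SE). Tnfsf11, which encodes RANKL, the chief paracrine mediator of progesterone, differed by -0.08 ± 0.16 (SE). The sign of the list's median rested on TMP195 tumour 2, without which it was 0.048, with 6 higher and 4 lower.

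Of the 9 members, 4 (Stat5a, Stat5b, Elf5 and Grhl2) were lowest in TMP195 tumour 2, as were 22.4% of all genes. Stat5a, the main STAT5 gene of alveolar development, read 8.61, 9.02 and 9.14 under vehicle and 8.94, 8.21 and 8.76 under TMP195. The lowest was TMP195 tumour 2, 0.40 below the next lowest, and the next lowest was vehicle tumour 1, so the groups overlapped. The difference was -0.28 ± 0.22 (SE), with an interval of -0.81 to 0.24 (limma unadjusted p = 0.243, adjusted p = 1.00). Without TMP195 tumour 2 it was -0.069.

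Stat5b, its neighbouring paralogue, read 8.22, 8.39 and 8.56 under vehicle and 8.56, 8.07 and 8.43 under TMP195. TMP195 tumour 2 was again the lowest and vehicle tumour 1 the next. The difference was -0.04 ± 0.16 (SE), with an interval of -0.41 to 0.33, and its sign turned without TMP195 tumour 2 (0.11) or vehicle tumour 3 (0.051). Within each tumour, Stat5a minus Stat5b, each gene taken as its deviation from its mean over the 6 tumours, was -0.02, 0.22 and 0.17 under vehicle and -0.03, -0.27 and -0.07 under TMP195. The vehicle values lay above the TMP195 values, at the closest by 0.01. Both proteins are much alike in sequence, probe sequences were not used here, and whether a probe set also read the other gene was not tested.

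Stat5a and Stat5b lie next to each other on chromosome 11, and their promoter windows are shown because both transcripts were lowest in TMP195 tumour 2. The windows come from RefSeq, build GRCm38.p6, and run from 250 bases before to 50 after a start site. Each gene had 2 windows, and the pair with the best local alignment is printed 5′ to 3′, Stat5a at chr11:100860234-100860533 on the plus strand and Stat5b at chr11:100822521-100822820 on the minus strand, with the aligned block in capitals.
Stat5a: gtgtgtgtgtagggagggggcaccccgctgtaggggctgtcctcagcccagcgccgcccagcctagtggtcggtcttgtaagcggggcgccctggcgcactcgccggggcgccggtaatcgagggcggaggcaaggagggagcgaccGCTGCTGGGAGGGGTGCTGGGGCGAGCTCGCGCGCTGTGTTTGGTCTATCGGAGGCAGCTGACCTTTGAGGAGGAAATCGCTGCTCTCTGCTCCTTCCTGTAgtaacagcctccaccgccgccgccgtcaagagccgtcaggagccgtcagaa
Stat5b: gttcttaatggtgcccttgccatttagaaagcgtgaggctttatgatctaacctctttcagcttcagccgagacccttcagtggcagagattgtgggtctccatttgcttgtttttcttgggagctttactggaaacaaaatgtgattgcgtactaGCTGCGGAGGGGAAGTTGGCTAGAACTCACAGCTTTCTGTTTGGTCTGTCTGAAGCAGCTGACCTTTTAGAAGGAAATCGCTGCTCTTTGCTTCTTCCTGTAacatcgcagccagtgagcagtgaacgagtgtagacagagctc
The block takes bases 148 to 249 of the Stat5a window and 157 to 258 of the Stat5b window, and 83 of its 104 aligned columns (79.8%) were identical. In each gene it holds 1 match to the nuclear receptor half-site AGGTCA, on the strand opposite to the one printed, starting at base 207 in Stat5a and base 216 in Stat5b, counted from the first base of the window. On both strands together, 16.3% of 32851 mouse promoter windows of this length hold that half-site. How often other pairs of promoters align this well was not tested. A STAT motif, TTCNNNGAA, was in 0 of the 4 windows of these genes. Over all members, Prlr included, 2 of 14 windows held it (1 of Esr1 and 1 of Prlr), against 8.3% of all windows. A match or its lack describes these letters and says nothing of binding.

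Elf5, the ETS factor of alveolar luminal progenitors, read 11.06, 11.22 and 11.24 under vehicle and 11.16, 10.70 and 11.08 under TMP195. TMP195 tumour 2 was the lowest, by 0.36, and the other 5 tumours lay between 11.06 and 11.24. The difference was -0.19 ± 0.14 (SE), with an interval of -0.53 to 0.14 (limma unadjusted p = 0.211, adjusted p = 1.00), and -0.054 without TMP195 tumour 2.

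Ehf, a member of the same ETS subfamily that lies near Elf5 on chromosome 2, read 11.16, 11.38 and 11.29 under vehicle and 11.46, 11.27 and 11.41 under TMP195. It was highest in TMP195 tumour 1 and lowest in vehicle tumour 1. The difference was 0.10 ± 0.10 (SE), with an interval of -0.14 to 0.34. Elf5 and Ehf thus differed in sign, and only 2 long noncoding RNA genes lie between them in the RefSeq table. Elf5 minus Ehf within a tumour, as deviations, was 0.15, 0.09 and 0.21 under vehicle and -0.05, -0.31 and -0.08 under TMP195, so the groups did not overlap, with a gap of 0.14.

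Such within-tumour differences were taken for all 36 pairs of the 9 members. The groups did not overlap in 4 of 36 pairs (11.1%), against 7.13% of all pairs of the 19937 genes. The 4 pairs were Elf5 and Ehf, Elf5 and Stat5b, Pgr and Ehf, and Stat5a and Stat5b, which share members and so are not separate observations. In each of the 4, the gene named first was lower relative to the second under TMP195.

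The milk protein genes, classical targets of prolactin, STAT5 and ELF5, were read from a list of 9, of which 8 were measured. Of these, 2 were higher and 6 lower under TMP195, with a median difference of -0.87, and 0 passed an adjusted or unadjusted p of 0.05 in limma. The direction rested on TMP195 tumour 2, without which 5 were higher and 3 lower, with a median of 0.15. The median was -1.5 without vehicle tumour 1, -0.55 without vehicle tumour 3 and -1.4 without TMP195 tumour 3. The lowest tumour was TMP195 tumour 2 for 6 of the 8 genes and vehicle tumour 2 for Csn3 and Csn1s2b, the latter dim at percentile 18.7. Wap, whey acidic protein, read 9.58, 10.98 and 10.89 under vehicle and 10.05, 6.77 and 9.85 under TMP195. Csn1s1, an alpha casein, read 10.26, 11.09 and 11.40 under vehicle and 10.82, 7.75 and 10.85 under TMP195. Apart from TMP195 tumour 2, vehicle tumour 1 was the lowest for both genes, as it was for Stat5a, Stat5b and Elf5. Csn3, kappa casein, did not share this order and stayed between 11.73 and 11.98 in all 6 tumours. Btn1a1, butyrophilin of the milk fat globule, differed by -0.63 ± 0.55 (SE).

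The list kept for the prolactin to STAT5 pathway held Jak2, Cish, Socs1, Socs2, Socs3, Id2 and Tnfrsf11a, all 7 measured. Of these, 5 were higher and 2 lower under TMP195, with a median of 0.082 and 0 past an adjusted p of 0.05. Limma gave 1 of 7 at an unadjusted p under 0.05, against 2.52% of all genes. This was Tnfrsf11a, which encodes RANK, the receptor of RANKL. It read 8.24, 8.42 and 8.33 under vehicle and 8.07, 7.71 and 8.15 under TMP195, a difference of -0.35 ± 0.13 (SE, limma unadjusted p = 0.0335, adjusted p = 1.00). Its groups did not overlap, 1 of 7 in the list against 6.68% of all genes. The lowest tumour was again TMP195 tumour 2. The STAT5-induced inhibitors Cish and Socs2 differed by -0.11 ± 0.11 (SE) and 0.24 ± 0.23 (SE). Socs2, at 9.63, and Socs3, at 7.74, were highest in TMP195 tumour 2, where Stat5a was lowest. Id2, at 11.05, was lowest there, as was Tnfrsf11a, so the list had 2 genes highest and 2 lowest in that tumour. Cish (6.22), Socs1 (4.0) and Jak2 (8.12) were neither. Socs1, another inhibitor of JAK2, differed by 0.09 ± 0.09 (SE).

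**Figure D3:**
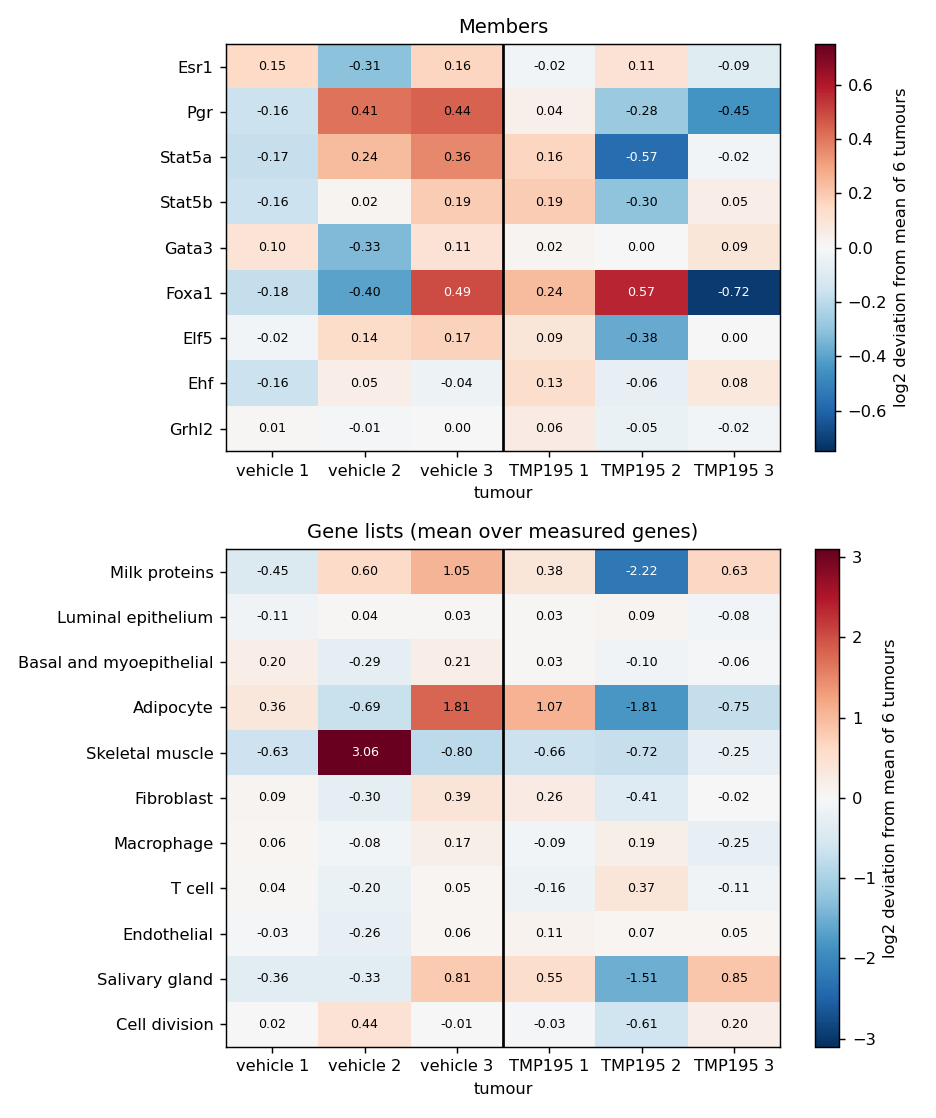
Log2 deviation of each tumour (columns) from the mean of the 6 tumours, for the 9 regulators (upper panel) and for the mean of milk protein genes and of each marker list (lower panel, wider colour scale); red is above and blue below the mean. In TMP195 tumour 2, Stat5a (-0.57), Stat5b (-0.30), Elf5 (-0.38) and milk protein genes (-2.22) are low while luminal markers are at 0.09. That luminal mean includes Krt19, at 10.52 in this tumour and 9.39 to 10.01 in the others. In vehicle tumour 2, Esr1 (-0.31) and Gata3 (-0.33) are low and skeletal muscle markers are at 3.06.

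TMP195 tumour 2 was read against the median of the other 5 tumours, and each gene's place is given among the same differences of all genes in that tumour. Stat5a lay -0.74 away (percentile 2.0), Elf5 -0.46 (percentile 5.4) and Stat5b -0.36 (percentile 8.5). Pgr lay -0.32 away (percentile 10.3) and Esr1 0.13 above (percentile 71.0). Gata3, Grhl2 and Ehf lay between -0.11 and -0.05, at percentiles 29.5 to 38.9, and Foxa1 lay 0.75 above (percentile 97.3). Kit, the stem cell factor receptor of luminal progenitors, and Aldh1a3, an aldehyde dehydrogenase of the same cells, lay 0.75 and 1.24 above (percentiles 97.3 and 99.1). These 2 genes of the list of 16 luminal epithelial genes were picked after their values were seen. Over that list, 6 of 16 were highest and 4 lowest in this tumour, Cldn4 (8.28) and Spdef (6.26) among the lowest. A single tumour has no replicate. Its summed intensity of adipocyte markers was 257 (vehicle tumours 1289 to 6359), of salivary gland markers 160 (vehicle 483 to 1625, 3 of the 8 below the 30th percentile) and of cell division genes 1593 (vehicle 2423 to 3205). The part of these other tissues in the low values was not tested. The luminal marker sum, 10463, was the highest of the 6 tumours. Of its genes, Krt19 read 10.52 there, against 9.39 to 10.01 in the other 5 tumours. Cdh1 was also highest in this tumour, at 10.99, whereas Epcam and Cldn7 were at their lowest, at 10.03 and 9.36. In vehicle tumour 1, Cldn7 also rounded to 9.36. Krt8, Krt18 and Cldn3 were neither highest nor lowest. The rank of the sum rested on Krt19. TMP195 tumour 1 and vehicle tumour 2 had sums of 10246 and 10226, with Krt19 at 9.87 and 9.85. Leaving Krt19 out puts both of them above TMP195 tumour 2.

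Vehicle tumour 2 was the lowest for 2 of 9 members, Gata3 and Esr1, and for 18.7% of all genes. Gata3, a luminal lineage factor, read 11.04, 10.61 and 11.04 under vehicle and 10.96, 10.93 and 11.03 under TMP195. The 5 tumours other than vehicle tumour 2 lay between 10.93 and 11.04. The difference was 0.08 ± 0.14 (SE), with an interval of -0.25 to 0.40, or 0.84-fold to 1.32-fold. Its sign turned without vehicle tumour 2 (-0.068). Esr1 minus Gata3 within a tumour, as deviations, lay between -0.18 and 0.11. That tumour held the excess of skeletal muscle markers given above, and their part in the low values was not tested. Its luminal marker sum was 10226, the highest of the vehicle tumours.

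Foxa1, the pioneer factor of the estrogen receptor, spread most among the 9. It read 4.42, 4.20 and 5.09 under vehicle and 4.84, 5.17 and 3.88 under TMP195, a range of 2.45-fold over the 6 tumours (percentile 96.2 of the ranges of all genes). Both the highest and the lowest tumour had received TMP195. The difference was 0.06 ± 0.37 (SE), with an interval of -0.81 to 0.93, and leaving out single tumours moved it from -0.21 to 0.44. The probe set lay at percentile 36.9 of mean intensity. Foxa1 was the only member with a range of at least 1 on the log2 scale, so its profile was set against the 1192 other genes of that range at or above the 30th percentile of intensity. By root mean square distance over the 6 tumours, after centring each gene on its mean, the closest were Dmbt1 (0.15), a secreted scavenger receptor protein of mucosal epithelia, Snord85 (0.19), a small nucleolar RNA, and Prelp (0.20), a matrix proteoglycan. The median distance was 0.61.

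Grhl2, the grainyhead factor of epithelial junctions, varied least. It read 8.74, 8.72 and 8.74 under vehicle and 8.79, 8.68 and 8.71 under TMP195, a range of 1.08-fold (percentile 1.5 of the ranges of all genes). The difference was -0.0072 ± 0.08 (SE), with an interval of -0.20 to 0.19, or 0.87-fold to 1.14-fold. Among the members it bounded a change by TMP195 most tightly.

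Luminal epithelial genes as a list of 16, all measured, were 9 higher and 7 lower under TMP195, with a median of 0.012 and 0 past an adjusted p of 0.05. Limma gave 1 of 16 at an unadjusted p under 0.05, against 2.52% of all genes. This was the tight junction gene Cldn4 (-0.48 ± 0.19 SE, limma unadjusted p = 0.0425, adjusted p = 1.00). Aldh1a3 differed by 0.49 ± 0.33 (SE), Kit by 0.27 ± 0.21 (SE) and the keratin gene Krt19 by 0.23 ± 0.27 (SE), and TMP195 tumour 2 was the highest for all 3. Epcam, in contrast, stayed between 10.03 and 10.14 in all 6 tumours. Of 11 cofactors and partners of the hormone receptors, GATA3 and FOXA1, 9 were measured, 8 higher and 1 lower, with a median of 0.07 and 0 past an adjusted p of 0.05 or an unadjusted p of 0.05. Over all genes, 49.5% were higher. Vehicle tumour 2 was the lowest tumour for 6 of these 9 genes. Without it the list had 5 higher and 4 lower, with a median of 0.03. With both tumours numbered 2 left out, it had 4 higher and 5 lower, with a median of -0.0048. Without TMP195 tumour 1 the median was 0.15. The coactivator gene Ncoa1 differed by 0.15 ± 0.12 (SE), the membrane progesterone-binding protein gene Pgrmc1 by 0.11 ± 0.09 (SE), and the AP-2 factor genes Tfap2c and Tfap2a by 0.15 ± 0.13 (SE) and 0.16 ± 0.18 (SE).

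Hormone receptors were then set against lineage factors, by median difference and within each tumour. The median difference was -0.23 over the 2 measured receptors, 0.063 over the 5 lineage factors and -0.16 over the STAT5 factors. The receptor value was the midpoint of Pgr (-0.46) and Esr1 (-0.0055), was -0.11 with 16 added to every intensity, and was -0.0055 with dim genes left out, where Esr1 alone remained. The lineage median was -0.068 without vehicle tumour 2, and the STAT5 median was 0.018 without TMP195 tumour 2. The mean deviation of the receptors minus that of the lineage factors was 0.05, 0.16 and 0.16 under vehicle and -0.10, -0.10 and -0.16 under TMP195, so the groups did not overlap. Neither receptor alone gave this order. For Esr1 minus the lineage factors the values were 0.20, -0.20 and 0.02 under vehicle and -0.14, 0.09 and 0.02 under TMP195. For Pgr minus the lineage factors they were -0.11, 0.51 and 0.30 under vehicle and -0.07, -0.30 and -0.34 under TMP195. Both overlapped. The members were chosen with earlier results of these data known, Pgr was dim, and no test was made of this score. How often such a score leaves the groups apart for other genes was not tested.

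**Figure D4:**
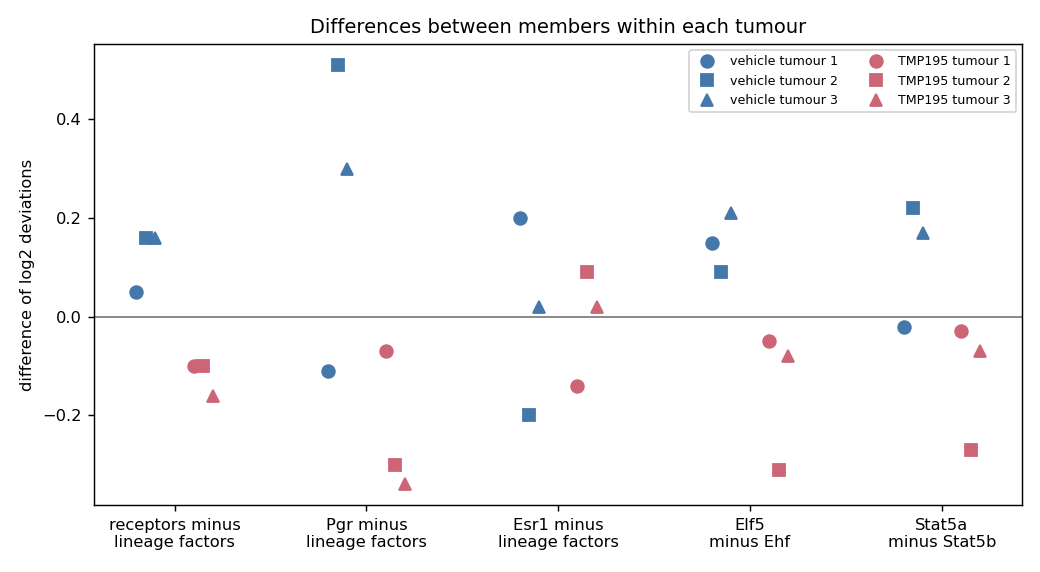
Differences of log2 deviations between members within each tumour (vertical axis), for receptors (mean of Esr1 and Pgr) and each receptor minus the mean of the 5 lineage factors, and for Elf5 minus Ehf and Stat5a minus Stat5b; blue is vehicle, red TMP195, and shapes are tumours 1 to 3. The groups are apart for the receptor mean (0.05 to 0.16 against -0.16 to -0.10), for Elf5 minus Ehf and, by 0.01, for Stat5a minus Stat5b, and overlap for Pgr and Esr1 alone. The 2 gene pairs shown are among the 4 of 36 member pairs that are apart, against 7.13% of all pairs of genes. No such share was taken for the receptor mean.

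Single tumours moved several of these values. Without vehicle tumour 1, the groups did not overlap in Elf5, Pgr and Stat5a, each lower under TMP195, 3 of 9 members against 18.5% of all genes in that setting. Without vehicle tumour 2, Gata3 and Esr1 did not overlap, 2 of 9 against 14.0%. Without TMP195 tumour 1, Pgr and Grhl2 did not overlap, 2 of 9 against 16.9%, and without TMP195 tumour 2 this held for Ehf, 1 of 9 against 15.2%. Without vehicle tumour 3 or TMP195 tumour 3 it held for 0 of 9, against 14.5% and 15.8%. The sign of the difference was the same with each tumour left out for Pgr, Stat5a, Elf5 and Ehf, and turned at least once for Esr1, Stat5b, Gata3, Foxa1 and Grhl2.

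**Figure D5:**
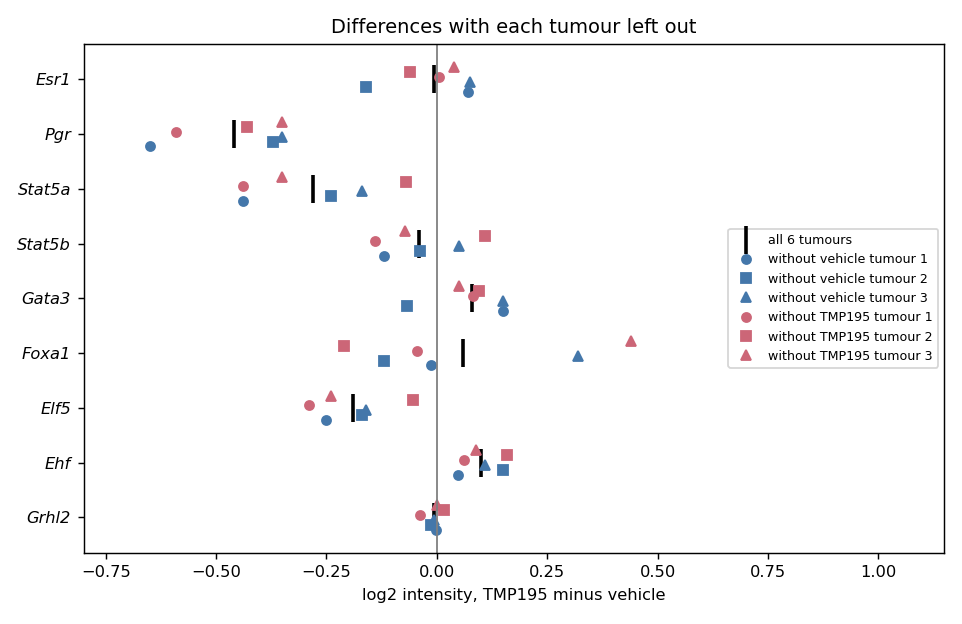
Difference in log2 intensity, TMP195 minus vehicle (horizontal axis), for each of the 9 regulators with all 6 tumours (black bar) and with each tumour left out in turn (blue without a vehicle tumour, red without a TMP195 tumour). Pgr runs from -0.65 to -0.35, Stat5a from -0.44 to -0.069 and Elf5 from -0.29 to -0.054, while Foxa1 runs from -0.21 to 0.44.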

How the data were processed

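Column-purified, DNase-treated total RNA of 6 whole tumours carried a biotin label, per the labels' protocols. The authors made the deposited intensity values with Affymetrix Power Tools (RMA), per the submitters' processing notes; the sources used here give no version, build or filter. They were taken as linear, since the medians (44.8 to 46.4) and highest values (8137 to 8873) exceed a log2 range, and their scale and centring are not stated. Quantile normalization, usual in RMA, would hide a shift of most genes.

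The table held 27359 probe sets, of which 21784 carried 1 gene symbol; those with several (1620) or none (3955) stayed unnamed. 21693 Entrez IDs were found in RefSeq (GRCm38.p6), and 0 symbols changed. The probe set of highest mean stood for a gene, and its log2 intensity was fitted with limma 3.58.1 in R 4.3.3 (constant prior of 2.93 degrees of freedom beside 4 residual), TMP195 minus vehicle without covariates. The fit was tested on simulated data. Python 3.11.15, pandas 2.3.3, numpy 2.4.6 and matplotlib 3.10.9 did the rest.

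The members, lists and alternatives were chosen with earlier results of these data known. All members were named, up to 4 genes of each process list by unadjusted p, and the 3 profiles closest to any member with a range of at least 1; other list genes, and the comparison of TMP195 tumour 2, were chosen after their values were seen. Alternatives were the replicate block, median centring, a trended robust prior, cyclic loess, a filter at the 30th percentile of intensity, the mean of probe sets, every probe set, array weights, 16 added to intensities, and tumours left out. Correlations of deviations between same-numbered tumours were -0.212, -0.063 and -0.097. Differently numbered tumours were not correlated for comparison, so whether the numbers pair the tumours was not tested.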

Additional observations from a re-analysis of the deposited data

How the results depend on the processing

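No alternative called any member at an adjusted p of 0.05, and Pgr, Stat5a, Elf5 and Ehf kept their direction in every alternative that gave a value (Pgr was not tested with dim genes left out). With the labels' replicate number as a block the differences were the same, Pgr had a limma unadjusted p = 0.111, and 397 genes were under an unadjusted p of 0.05 where the fit without it gave 502. That count was 938 with array weights, 243 with dim genes left out, and 503 to 669 with a tumour left out. Signs turned for Esr1 with median centring (0.00047), for Foxa1 (-0.37) and Grhl2 (0.0019) with array weights, and with both tumours numbered 2 left out for Foxa1 (-0.39), Gata3 (-0.048), Grhl2 (0.01) and Stat5b (0.10). In that last setting Gata3, Esr1 and Ehf, 3 members, did not overlap, against 28.8% of all genes. With a tumour left out, differences ran from -0.16 to 0.075 for Esr1, -0.21 to 0.44 for Foxa1, -0.068 to 0.15 for Gata3, -0.039 to 0.016 for Grhl2 and -0.14 to 0.11 for Stat5b. The lineage factor median ran from -0.068 to 0.11 and the members not overlapping from 0 to 3. Members at an unadjusted p under 0.05 numbered 0 to 1 with a tumour left out and 1 with array weights, Pgr each time. With dim genes left out, the receptor median was -0.0055, since Esr1 alone remained. Pgr and Foxa1 lay at percentiles 25.8 and 36.9 of intensity. The cause of these shifts was not tested.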
